A study of Caenorhabditis elegans with 4 samples.

Results

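The data describe the regions of chromosome V of Caenorhabditis elegans that were enriched for the Hox protein LIN-39 in larvae at the L3 stage. They comprise every region that the authors' combined list places on V, 1020 of 7493 regions in all, chosen by chromosome alone. The ChIP samples held DNA precipitated with a goat polyclonal antibody against EGFP, and the input samples held DNA of the same preparation that was not precipitated, with 2 libraries of each. All 4 libraries came from hermaphrodites of strain OP18, grown at 20 °C and fixed with 2% formaldehyde. Its animals carry the mutation unc-119(ed3) on chromosome III and the transgene wgIs18, in which the rescue marker unc-119(+) accompanies a tagged gene, lin-39::TY1::EGFP::3xFLAG. The transgene was brought in by biolistic transformation, the labels describe its expression as that of lin-39 itself, and they list no mutation in lin-39, so untagged protein may be present beside the tagged one. The protocol text names embryos at the lysis step although the samples are labelled L3. Chromatin came from whole animals, so a region bound in few cells and one bound weakly in many cannot be told apart.

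LIN-39 is a homeodomain transcription factor of the mid-body Hox group. It is known for keeping vulval precursor cells from fusing, for the fates of ventral cord neurons and for the migration of neuroblasts. Chromosomes of this worm have no single centromere. Their central parts are known to hold more of the conserved and broadly used genes, whereas the arms recombine more and hold more repeats and fast-evolving gene families. Chromosome V is known for its many chemoreceptor genes of the seven-transmembrane families. No annotation of the build of the list (WormBase WS180) was used, so regions are given by position and no gene is assigned.

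The list holds 29.4% of the 25497 regions that were tested, a number inferred from the q-values, and being listed is what makes a region a member. One list covers both replicates, so no value has a spread between replicates. The intervals below are exact 95% intervals that cover counting error and treat regions as independent, which neighbouring regions are not, so the intervals are too narrow and the p-values too small.

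Chromosome V had few LIN-39 regions for its length. Its 1020 regions made up 13.6% of the list on 20.9% of the span, where the span of a chromosome runs from 1 to its largest region end (20.89 Mb on V). The density was 48.8 regions per Mb (45.9 to 51.9), against 73.1 per Mb on II, III, IV and X together, a ratio of 0.669 (0.624 to 0.716). Chromosome IV was nearest, at 60.4 per Mb (56.8 to 64.1), and V stood at 0.809 of it (0.741 to 0.882). The ratio was 0.705 to II, 0.630 to III and 0.572 to X, with all upper bounds below 1. Chromosome I had 119 regions per Mb and is left out of the joint comparison. The factor that scaled its input reads, inferred from the q-values, was 1.39, against 1.81 to 1.98 on V, II, III, IV and X. Its density is therefore not on the same footing, and what the factor does to it was not tested. When the interval of the ratio to II, III, IV and X together was widened for the uneven filling of 1 Mb windows, it became 0.549 to 0.809. No other interval was widened in this way. Regions covered 2.56% of the span of V, against 3.56% of the others together. That V has the lowest density was known when these regions were chosen, so the order is a description.

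The arms of V were sparser than its centre. Arms are the outer 30% at each end, and on V the left arm, centre and right arm held 255, 569 and 196 regions. The density was 40.7 per Mb (35.9 to 46.0) in the left arm, 68.1 (62.6 to 73.9) in the centre and 31.3 (27.1 to 36.0) in the right arm. The arms together had 0.528 times the density of the centre (0.466 to 0.599). The centre of V was not the sparsest of the 5: it stood at 1.06 times the centre of IV, with an interval of 0.933 to 1.1996 that includes 1. Against the centres of II, III and X the ratios were 0.789 (0.700 to 0.890), 0.747 (0.662 to 0.844) and 0.884 (0.784 to 0.996).

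**Figure D1:**
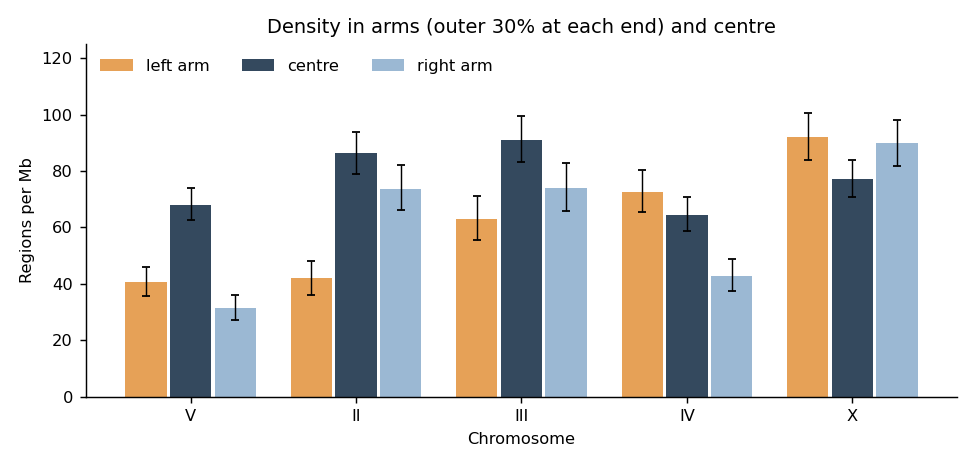
Regions per Mb in the left arm, centre and right arm of V, II, III, IV and X, with exact 95% Poisson intervals as error bars. The right arm of V, at 31.3 per Mb, is the lowest of the 15 bars, and the centre of V, at 68.1, lies beside that of IV, at 64.4.

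The right arm of V was sparser than each of the other 4 right arms. It held 0.732 times the density of the right arm of IV (0.601 to 0.891), 0.424 times that of II, 0.422 times that of III and 0.348 times that of X. The left arm of V had 40.7 per Mb against 41.9 on that of II, a ratio of 0.971 whose interval (0.802 to 1.18) includes 1, and stood at 0.647 of the left arm of III, 0.560 of IV and 0.442 of X. On V, 451 of 1020 regions (44.2%) lay in an arm, against 2665 of 4689 (56.8%) on II, III, IV and X. As odds, a place in an arm was 0.602 times as frequent on V as on the others (0.524 to 0.692; Fisher's exact test, two-sided, adjusted p = 4.12e-12 by Benjamini-Hochberg over 30 tests of V). With X left out of the others, the odds ratio was 0.689 (0.596 to 0.796). Against single chromosomes the odds ratio ranged from 0.448 against X to 0.788 against II (Fisher's exact test, adjusted p = 0.0183), and all 4 were past the threshold of 0.05.

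Within V the left arm was denser than the right, 1.30 times (1.08 to 1.58). With gaps of 200 kb or more taken out of both arms it was 1.24 (1.03 to 1.50). With gaps of 100 kb or more taken out of both arms, a choice made after seeing the data, the ratio was 0.923 (0.763 to 1.12). Such gaps made up 50.5% of the right arm and 30.3% of the left. Taking them out raises the sparser arm most by construction, so this value does not show a reversal. Among the better-scoring 50% of the list the ratio was 1.34, with an interval (0.993 to 1.82) that includes 1.

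Along V, in 10 bins of equal length, the density rose towards the middle. From the left end these bins held 85, 60, 110, 113, 136, 173, 147, 72, 38 and 86 regions. Bin 6 was the fullest at 82.8 per Mb (71.0 to 96.1), and bin 9 was the emptiest at 18.2 per Mb (12.9 to 24.97), a 4.55-fold range. The range was 2.28-fold on X, 2.37-fold on III, 2.75-fold on IV and 2.88-fold on II. In the last bin of V the density was again 41.2 per Mb (32.9 to 50.9), close to the 40.7 of the first. The middle 50% of the regions of V lay between 29.985% and 65.9% of the span, a narrower part than on II (35.8 to 74.1%), III (30.5 to 72.6%), IV (21.2 to 66.9%) or X (25.3 to 75.7%).

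**Figure D2:**
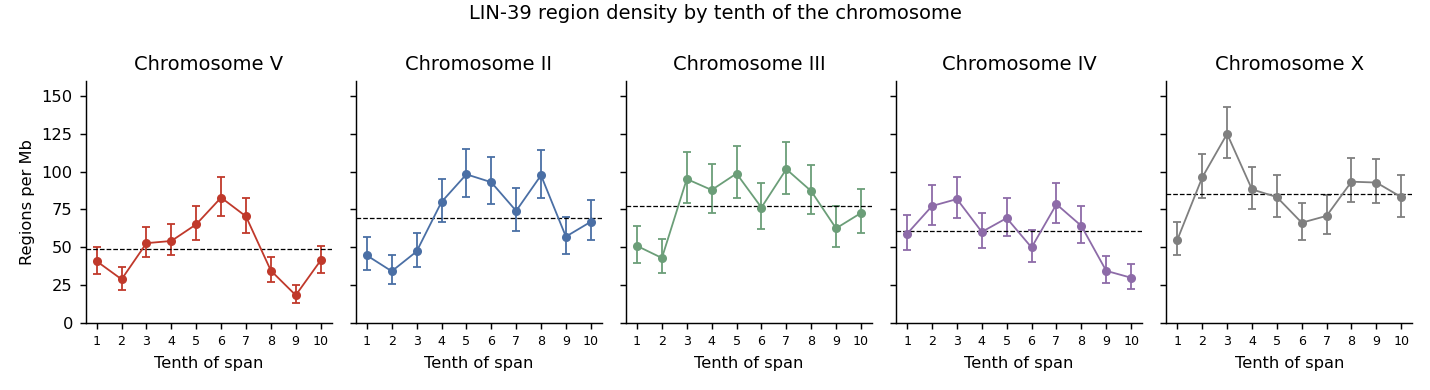
Regions per Mb in each of 10 equal bins of the span of V, II, III, IV and X, from the left end, with exact 95% Poisson intervals and the chromosome's mean as a dashed line. On V the points climb to 82.8 in bin 6 and fall to 18.2 in bin 9.

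In windows of 1 Mb the drop on the right side of V was abrupt. The last 5 windows before 15 Mb held 81, 82, 72, 70 and 84 regions, 389 in all. The next 4 held 25, 22, 13 and 24 regions, 84 in all or 21 per Mb. This run, from 15 to 19 Mb, was singled out after its values were seen, as the longest run of windows with at most 25 regions. The lowest sum over 4 neighbouring windows was 149 on IV, 158 on II, 242 on III and 283 on X. Of the 20 complete windows of V, 17 were below the median of 74.5 in the 62 windows of the other chromosomes, and 2 were below the lowest of those, which held 22.

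Beyond the sparse run the count recovered in part, to 36 regions between 19 and 20 Mb and 43 in the last 0.885 Mb. The left side was uneven in another way. Its first 6 windows held 23, 57, 21, 37, 50 and 51 regions, so that a full window stood between 2 sparse ones. In windows of 100 kb, 19 of 208 on V were empty (9.13%), against 4 of 152 on II, 2 of 137 on III, 1 of 174 on IV and 3 of 176 on X. Of the 19, 12 lay in the right arm, 6 in the left arm and 1 in the centre. The fullest 100 kb window of V, from 13100001 to 13200000, held 18 regions, against 22 on II, 19 on III, 21 on IV and 20 on X. At 1 Mb the fullest window of V held 84 regions, against 107 on II, 111 on III, 89 on IV and 127 on X.

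Long stretches without a region were frequent on V. Its 1019 gaps between neighbouring regions included 37 of at least 100 kb (3.63%), against 39 of 4685 (0.832%) on II, III, IV and X. The odds ratio was 4.49 (2.77 to 7.26). Singly, II had 13 of 1056, III 3 of 1067, IV 17 of 1054 and X 6 of 1508. A fixed length in kb largely restates the low density of V, which was known when V was chosen, so these counts are given as a description with no p-value. Gaps of this length took up 5.63 Mb of V, or 26.96% of its span, against 2.90 to 12.5% of the others.

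They stood mostly in the arms, with 13 in the left arm, 5 in the centre and 19 in the right arm, where they made up 50.5% of the length. The share was 30.3% in the left arm and 6.81% in the centre. Outside them V had 66.9 regions per Mb, against 79.4 on the others treated the same way, a ratio of 0.842 (0.787 to 0.902). By zone these densities were 58.4 in the left arm, 73.1 in the centre and 63.2 per Mb in the right arm. Taking out long gaps raises a sparse chromosome most by construction.

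**Figure D3:**
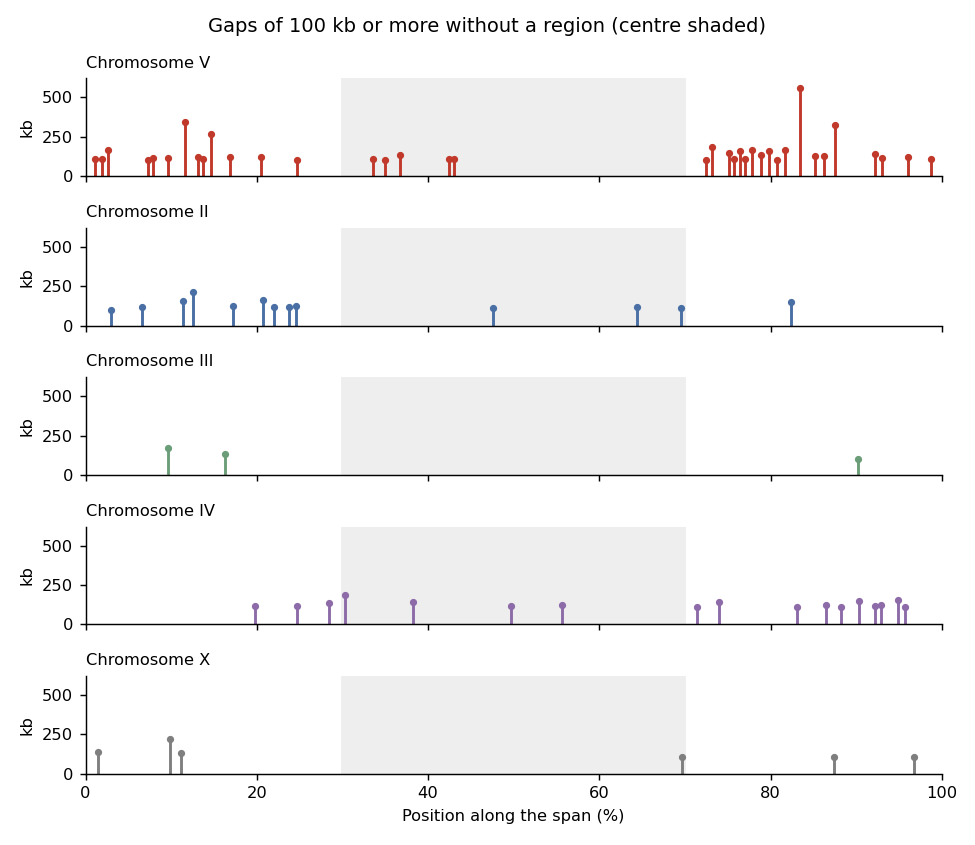
Each gap of 100 kb or more on V, II, III, IV and X, placed by its midpoint as a percent of the span, with its length in kb as height; the central 40% is shaded. V has 37 such gaps, 19 of them in the right arm, and the tallest line is its gap of 559 kb.

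The longest gap, from 17139294 to 17697961, measured 559 kb. The region on its left was 53 bp wide with 15 ChIP reads against 2 scaled input reads, and that on its right was 44 bp wide with 14 against 2, so both borders rest on few reads. Another long gap, from 16966174 to 17134315, preceded it. From 16966174 to 17697961, over 732 kb, the list held only 2 regions, which covered 218 bp together. The second gap, from 2255494 to 2600587 (345 kb), was bordered by better covered regions, one of 70 ChIP reads enriched 2.26-fold and one of 128 reads enriched 3.46-fold. The third ran from 18115381 to 18437183 (322 kb), the fourth from 2918615 to 3187918 (269 kb) and the fifth from 15191307 to 15378963 (188 kb). The region to the left of the fourth, from 2918609 to 2918614, was 6 bp wide and held 16 ChIP reads, and before it lay a further gap of 109 kb. Only 2 gaps on the other 4 chromosomes reached 200 kb, the longest being 218 kb on X.

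Between long gaps the regions of V formed stretches of very unequal size. The longest ran from 9054497 to 15084720, over 6.03 Mb without a gap of 100 kb. It held 462 regions, 45.3% of those on V, on 28.9% of the span, at 76.6 per Mb. To its left, over 9.05 Mb, 18 stretches held 402 regions, with a median of 9 and up to 114. To its right, over 5.80 Mb, 19 stretches held 156 regions, with a median of 4 and at most 29, and 8 of them had 3 regions or fewer. The median length of these stretches was 193 kb on the left and 42.0 kb on the right. Uninterrupted stretches were longer on III (10.1 Mb) and X (10.2 Mb) and shorter on II (3.41 Mb) and IV (3.32 Mb). Inside them the density was 85.3 per Mb on III, 90.7 on X, 84.2 on II and 71.7 on IV.

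Gaps of ordinary length differed less. The median gap on V was 7.26 kb (6.23 to 8.52 kb), against 5.82 kb on II, III, IV and X together, and 555 of 1019 gaps (54.5%) exceeded that value, against 2342 of 4685 on the others. The odds ratio was 1.197 (1.04 to 1.37), and without the regions narrower than 50 bp it was 1.14 (0.985 to 1.31). Like the long gaps, lengths in kb follow the density and are a description. The 75th and 90th percentiles were 23.1 and 55.0 kb on V, above those of all 4 others, whose 90th percentiles ranged from 28.9 to 40.7 kb.

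Relative to the chromosome's own mean gap, long gaps were little more frequent on V but took up more of its span. After division by the mean gap of each chromosome (20.0 kb on V), 8.93% of the gaps of V exceeded 3 means, against 7.59 to 8.62% on the others. These gaps made up 46.2% of the span of V, against 34.6 to 41.3% of the others, and neither share was tested. The gaps of V exceeded the pooled median of these ratios in 470 of 1019 cases (46.1%), against 2342 of 4685, an odds ratio of 0.856 (0.746 to 0.983; Fisher's exact test, two-sided, adjusted p = 0.0475). The tests adjusted together include those of gap lengths in kb, which follow the low density known beforehand. Their small p-values lower the other adjusted values, so a value this near the threshold is not a firm call. Against single chromosomes, each cut at its own median, only III was past the threshold, at 0.805 (0.675 to 0.960; Fisher's exact test, adjusted p = 0.0281). The odds ratios against II, IV and X were 0.891, 0.873 and 0.856, none past it. Among the better-scoring 50% of regions the odds ratio was 0.934 (0.760 to 1.15; Fisher's exact test, adjusted p = 0.586). With near regions counted once it was 0.864 (0.739 to 1.0096), about the same size on fewer gaps, and no longer past the threshold (Fisher's exact test, adjusted p = 0.0926). The standard deviation of the gaps was 1.81 times their mean on V and 1.37 to 1.53 times on the others. The longest gap was 28.0 means on V, against 11.5 to 19.6 means.

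**Figure D4:**
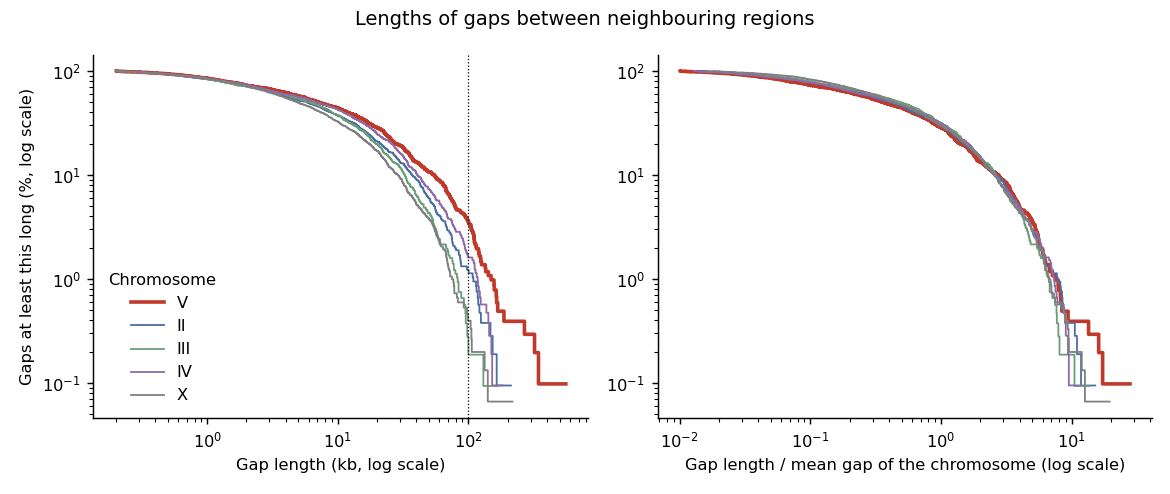
Percent of gaps at least as long as the value on the x axis, for V, II, III, IV and X, in kb (left, with 100 kb dotted) and divided by the chromosome's mean gap (right); all axes are logarithmic. In kb the curve of V departs to the right beyond about 20 kb, with 3.63% of its gaps at 100 kb or more. Over the mean gap the curves lie closer together, with a median gap of 0.364 means on V against 0.417 to 0.495 on the others.

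The share of close neighbours on V lay within the range of the other chromosomes. The nearest midpoint lay within 2000 bp for 366 regions of V (35.9%), against 35.3 to 39.2% on the other 4, and 41 groups of at least 3 such neighbours held 14.1% of the regions, against 13.9 to 16.6%. Isolation was more frequent: 113 regions of V (11.1%) had no neighbour within 20000 bp, against 3.84 to 8.53%. These shares follow density in part and were not tested. Within V close neighbours made up 29.0% of the left arm, 38.8% of the centre and 36.2% of the right arm, and groups of at least 4 numbered 3, 11 and 2.

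The largest group of V held 6 regions over 5.70 kb, from 10271246 to 10276943. Its leading member, from 10273654 to 10274306, had 245 reads in ChIP and 62 in scaled input (3.95-fold). The member with the highest ratio, 4.33-fold, lay from 10275570 to 10275961 and held 91 ChIP reads, and the other 4 held 25 to 72 reads at 2.44-fold to 3.13-fold. Groups of 5 lay from 1364351 to 1371460, from 6340983 to 6346500 and from 12895946 to 12900757. The closest pair of neighbours on V was separated by 201 bp. The smallest gap was 200 bp on II, 201 bp on III, 205 bp on IV and 203 bp on X, so this limit is shared and not a trait of V.

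Widths on V were slightly above those elsewhere. The median region was 391 bp wide (377 to 411), against 371 bp (364 to 377) on II, III, IV and X. On V 550 of 1020 regions (53.9%) were wider than 371 bp, against 2338 of 4689 (49.9%), an odds ratio of 1.18 (1.02 to 1.35; Fisher's exact test, two-sided, adjusted p = 0.0353). Against a single chromosome the cut was the median width of that chromosome, so these odds ratios are at different widths. The difference was found against II (cut 349 bp), at 1.41 (1.18 to 1.68), and III (cut 361.5 bp), at 1.26 (1.06 to 1.50). Against IV (cut 385 bp) the odds ratio was 1.08 (0.905 to 1.29) and against X (cut 387 bp) it was 1.06 (0.903 to 1.25), neither past the threshold. Median widths in the left arm, centre and right arm of V were 391, 393 and 384 bp, with overlapping intervals.

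Both ends of the width range were somewhat fuller on V than on the others together, and II came close to V at both. Regions of at least 1000 bp numbered 91 (8.92%), against 7.36% on the others together and 8.61% on II. Those narrower than 50 bp numbered 52 (5.10%), against 3.50% on the others together and 4.73% on II. These shares were not tested. The narrow ones gathered in the right arm, where 23 of 196 regions (11.7%, 7.59 to 17.1) were under 50 bp, against 3.16% (1.89 to 4.95) in the centre of V. In the left arm the share was 4.31% (2.17 to 7.59), and in the right arms of II, III, IV and X together it was 3.35% (2.45 to 4.45). This split was noticed in the data and not tested.

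Enrichment, the ratio of ChIP reads to scaled input reads, showed no difference of V that the test could resolve. Read numbers were solved from the deposited q-values, taking them as tails of a binomial distribution that include the observed number. In this form each of the 1020 regions of V had a single solution. A strict form of the tail gives the same q-values with 1 ChIP read fewer and 1 scaled input read more per region. The q-values cannot tell these forms apart. The median region of V held 82 ChIP reads against 33 scaled input reads, and the others held 86 against 35. The median enrichment was 2.48-fold (2.43 to 2.58) on V, against 2.50-fold (2.46 to 2.53) on II, III, IV and X. On V 502 of 1020 regions (49.2%) exceeded 2.50-fold, against 49.3%, and the odds ratio of 0.998 had an interval of 0.870 to 1.15 (Fisher's exact test, two-sided, adjusted p = 1).

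The arms of V did not differ from its centre in this measure beyond counting error. The median enrichment was 2.44-fold (2.34 to 2.59) in the left arm, 2.50-fold (2.41 to 2.61) in the centre and 2.52-fold (2.35 to 2.86) in the right arm. Among regions with at least 50 ChIP reads the medians were 2.20, 2.29 and 2.22, again with overlapping intervals. The sparse run from 15 to 19 Mb had a median of 2.87-fold (2.42 to 3.25) over its 84 regions, and of 2.24-fold (1.98 to 2.71) over the 50 of them with at least 50 reads. Of its regions, 12 (14.3%) were narrower than 50 bp. ChIP reads in listed regions summed to 2.24 times the scaled input on V, against 2.26 to 2.35 times on the others.

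Scores were somewhat weaker on V, though its 4 of the first 25 regions are too few to compare. Among the first 25, 200 and 1000 regions of the whole list, V had 4, 18 and 104, where V made up 13.6% of the list. II, III, IV and X together had 12, 97 and 592, and singly 3, 3, 2 and 4 of the first 25. The 104 regions in the first 1000 were 10.2% of those on V, against 12.6% of those on II, III, IV and X. A q-value below 1e-05 was reached by 35.8% of the regions of V, against 39.6%. Within V the share was 35.7% in the left arm, 36.4% in the centre and 34.2% in the right arm. These shares were not tested.

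Enrichment fell with width on V as on the other chromosomes, a relation that the calling sets in part, because a narrow region has few reads and is listed only when its ratio is high. The 52 regions of V under 50 bp had a median of 8-fold on 17 ChIP reads and 2 scaled input reads, against 5-fold on 20 and 4 reads on the others. The 507 regions of 200 to under 500 bp had a median of 2.51-fold, against 2.50-fold on the others, and the 91 of at least 1000 bp had 1.86-fold, against 1.94-fold. In all, 73 regions of V were enriched at least 5-fold, with a median width of 44 bp and a median scaled input of 2 reads, so most of the high ratios rest on few reads. Under the strict form of the tail all ratios would be lower, most of all in narrow regions, and fewer regions would reach 5-fold.

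**Figure D5:**
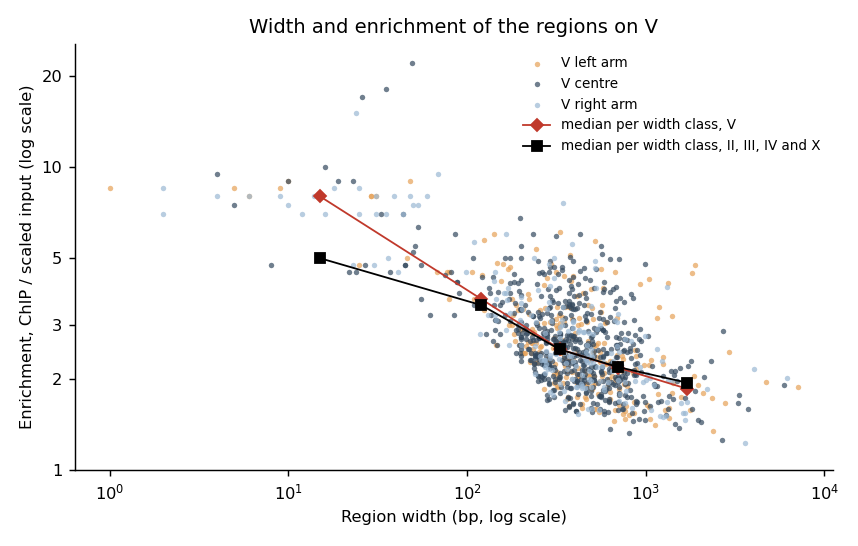
Enrichment against width for the 1020 regions of V, coloured by arm and centre, with the median of each width class on V and on II, III, IV and X; both axes are logarithmic. Arms and centre overlap throughout, and both median lines fall with width, meeting at 2.51 and 2.50 in the class of 200 to under 500 bp.

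The region of V with the smallest q in the authors' deposited list, from 4506715 to 4508610 in the left arm, was 1896 bp wide. It held 883 reads in ChIP and 186 in scaled input, a 4.75-fold enrichment (q = 1.51e-105). Next came the region from 10715310 to 10718021 in the centre, with 898 reads against 313 (2.87-fold, q = 6.70e-63), and that from 6222870 to 6229999, at the inner edge of the left arm. This last region was the widest of V at 7130 bp and held 2000 reads against 1063, a ratio of 1.88. The fourth, from 15070833 to 15072153 in the right arm, was 1321 bp wide and enriched 4.01-fold with 598 ChIP reads.

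The other 6 of the 10 smallest q were mostly wide and modest in ratio. Regions from 15563985 to 15570115, from 723649 to 728343, from 14685623 to 14689678 and from 10718271 to 10724215 were 4056 to 6131 bp wide and enriched 1.91-fold to 2.16-fold. From 1149260 to 1152169 the enrichment was 2.44-fold, and in the region from 1227877 to 1229697, 1821 bp wide, it was 4.46-fold with 437 reads. The region from 10718271 to 10724215 began 249 bp after the end of the second-ranked one, and both together spanned 8.91 kb. Of the 10, 5 lay in the left arm, 2 in the centre and 3 in the right arm.

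Ranked by ratio among the 129 regions of V with at least 200 ChIP reads, whose median was 2.05-fold, the order was another. The region from 9219017 to 9219728 led at 4.97-fold, with 308 reads in ChIP and 62 in scaled input over 712 bp. Those from 11341105 to 11342088 (4.80-fold, 240 reads), from 4506715 to 4508610 (4.75-fold), from 6267392 to 6267845 (4.63-fold, 241 reads) and from 1227877 to 1229697 (4.46-fold) followed. None of these 5 lay in the right arm, and those from 4506715 and 1227877 were also among the 10 with the smallest q.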

How the data were processed

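ChIP and input DNA from 2 replicates were compared by the authors, whose single combined list was made with PeakSeq on build WS180 of WormBase, per the file headers and columns. Its only measurement is a q-value per region, deposited by the authors with all values under 0.01. The aligner, versions, filters and the combination of replicates are not given in the sources used here. Samples were grouped by their descriptions, and whether the replicates were grown apart is not stated in the labels.

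Multiplying q by list position and dividing by 25497 gave p; at this number of tests the 60 commonest values all matched a binomial tail, against 1 at the next best number. Each p was solved for ChIP and scaled input reads (relative tolerance 3e-11), with the observed scaled input number counted in the tail. In this form the solution was unique for 7483 regions, and 10 had 2 or more solutions, none of them on V. The input factor, from the values that scaled input skips, was 1.91 on V, 1.81 to 1.98 on II, III, IV and X, and 1.39 on I. On simulated data of the same form, with 7149 regions, 99.99% had a single pair and all of these were correct.

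Midpoints placed regions in arms, bins and complete windows. Density ratios carry exact (Clopper-Pearson) binomial intervals, densities exact Poisson intervals, medians order-statistic intervals, and shares Fisher's exact test past the median of II, III, IV and X, adjusted over 30 tests (Python 3.11.15, SciPy 1.17.1). The 30 tests include those of gap lengths in kb, which are given as a description only but lower the adjusted p-values of the others. For width, gaps and enrichment against a single chromosome, the cut was the median of that chromosome. Named were the 10 smallest q, the 5 widest, the 5 most enriched with at least 200 ChIP reads, the largest group, the borders of the 5 longest gaps and the fullest and emptiest windows. The members and lists were chosen with earlier results of these data known. No sequence is printed, because no genome of this build was used.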

Additional observations from a re-analysis of the deposited data

How the results depend on the processing

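No paired analysis was possible because deposited regions merge both replicates into a single list; the same merging prevents leaving out either of them. The density of V stayed below the others, from 0.567 in the first 10% of the list to 0.719 by covered length, where regions averaged 524 bp on V and 487 bp on the others. With the input of all 5 chromosomes scaled by the highest factor (1.98) the density ratio was 0.673. There then remained 47.1 regions per Mb on V, 54.3 on IV, 66.7 on II, 74.2 on III and 85.0 on X. Chromosome IV, whose own factor was the lowest of these at 1.81, lost the most regions and came nearer to V. The comparisons of V with IV by arm and centre were not rescaled. The low density of V was known when V was chosen, so these values show only how far the ratio moved. The ratio of arms to centre on V ranged from 0.447 in the better-scoring 50% to 0.600 with arms of 35%. The odds ratio of lying in an arm, V against the other chromosomes, ranged from 0.633 to 0.689. The ratio of left to right arm was 1.34 in the better-scoring 50%, where fewer regions widened the interval to include 1. It was 1.24 with gaps of 200 kb or more taken out. With gaps of 100 kb or more taken out, an alternative chosen after seeing the data, it was 0.923 (0.763 to 1.12). That step raises the sparser arm most by construction. The odds ratio of gaps longer than the median was 1.14 without regions under 50 bp; the cause was not tested. For gaps over the mean gap it was 0.934 in the better-scoring 50%, where fewer regions were tested, and 0.864 with near regions counted once. The odds ratio of long gaps, which largely restates the low density, was 2.18 to 9.22 in 5 alternatives. Width stayed higher on V in 3 of 3 (1.22 to 1.29) and enrichment unresolved in 4 of 4 (0.908 to 0.994). Enrichments of the named regions stayed within their counting intervals in 38 of 38 alternatives. These alternatives moved reads by 1 or raised the input factor to 1.98. Such changes are too small to leave these intervals, so the count is no check. Depth limits the ratios of narrow regions and the borders of the longest gap.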
